A study of Danio rerio with 6 samples.

Results

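Genes of the exon junction complex, the nuclear cap-binding complex and the THO and TREX complexes, which act on a transcript between splicing and its exit from the nucleus, were compared between zebrafish *sart3* mutants and their wild-type (WT) siblings. They were chosen by symbol, as *magoh*, *rbm8a*, *eif4a3*, *casc3*, *ncbp1*, *ncbp2*, *alyref*, *thoc1*, *thoc2* and *thoc3*. Of these 10 symbols, 9 had a row in the count table, which held 37898 genes in all, and *ncbp1* had none. All 9 had enough reads for a test. *eif4a3*, *casc3* and *thoc1* were higher in mutants, *alyref* was lower, and *rbm8a*, *magoh*, *ncbp2*, *thoc2* and *thoc3* did not pass the test.

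RNA was sequenced from whole embryos at 4 days post fertilization (dpf), with 3 libraries of *sart3* mutants and 3 of WT siblings, numbered 1 to 3 in each group. *sart3* encodes a spliceosome recycling factor that helps U4 and U6 small nuclear ribonucleoproteins reassemble. The mutant allele, smu471, came from a chemical mutagenesis screen and carries a T to A substitution in exon 6 that makes a stop codon. Mutants and siblings came from intercrosses of heterozygous *sart3*+/- fish and were told apart by high-resolution melting genotyping. Siblings were labelled WT, and no transgene or treatment was listed for either group. The study calls the libraries biological replicates but gives neither the number of embryos in a library nor whether libraries came from separate clutches, so the p-values measure the spread between these libraries.

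The 3 sibling libraries held 17586740 to 18310233 counts on genes and the 3 mutant libraries 16008788 to 17387137. *sart3* itself (chromosome 5) had 66.1, 68.8 and 70.2 CPM (counts scaled by library size and normalization factor) in siblings and 53.4, 48.1 and 49.3 in mutants, which lay below every sibling (log2 fold change -0.44, standard error 0.07, adjusted p = 0.0023). Here and below, the log2 fold change is of mutants over siblings. The adjusted p comes from the quasi-likelihood test of edgeR, adjusted by the Benjamini-Hochberg method over the 24809 genes tested, and a gene was called at an adjusted p under 0.05. Under that rule 6924 genes (27.9% of those tested) were called, 3368 (13.6%) higher and 3556 (14.3%) lower in mutants. CPM of the 2 groups did not overlap for 11210 genes (45.2%).

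A whole embryo is a mixture, and fewer cells of a type cannot be told apart here from less RNA per cell. Markers of several cell types differed between the groups. Of 8 markers of proliferating cells 6 were lower and 1 was higher in mutants, and their summed level was 701 to 791 CPM in siblings and 472 to 523 CPM in mutants. Of 8 rows of neural progenitor markers 5 were lower and 1 was higher (145.5 to 167 CPM in siblings and 97.4 to 104 CPM in mutants). All 4 tested markers of exocrine pancreas were lower (1818 to 2106 CPM in siblings, 28.5 to 35.7 CPM in mutants), as were all 4 of photoreceptors (3761 to 4782 CPM in siblings, 1288 to 1487 CPM in mutants). Of 5 tested muscle markers 4 were higher and 1 was lower (23740 to 26840 CPM in siblings and 30350 to 32080 CPM in mutants). No marker in these lists was at 0 in every library. The muscle marker *mylpfa* had at most 2 reads in a library and the exocrine pancreas marker *ctrb1* at most 4, too few for a test. The part of these differences in the values below was not tested.

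The exon junction complex is set on the mRNA just upstream of each junction as the spliceosome joins exons, and it marks the transcript as spliced. Its clamp is the DEAD-box ATPase eIF4A3, which closes on RNA. The heterodimer of MAGOH and Y14, the protein that *rbm8a* encodes, locks eIF4A3 in its closed form, and CASC3 (also called MLN51 or Barentsz) binds it as a peripheral subunit. The complex is known for its roles in nonsense-mediated decay, mRNA localization and the splicing of neighbouring introns, and in mice a loss of a single copy of *Magoh*, *Rbm8a* or *Eif4a3* in neural progenitors gives a small brain. At the cap, NCBP2 holds the methylated guanosine and NCBP1 is the large subunit that meets other factors. The THO complex, of which THOC1, THOC2 and THOC3 are subunits and THOC2 the scaffold, loads the helicase DDX39B and the adaptor ALYREF onto the mRNA to form TREX, and ALYREF hands the transcript to the export receptor NXF1-NXT1.

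In numbers, 4 of the 9 genes (44.4%) were called, beside 27.9% of all genes tested, and 3 were higher and 1 lower. CPM did not overlap between the groups for the same 4 genes, beside 45.2% of all genes tested. The median log2 fold change of the 9 genes was 0.13, beside 0.01 over all genes tested, and single values ran from -0.56 to 0.87. With 9 genes, chosen with earlier results of these data known, these shares are a description of the set.

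**Figure D1:**
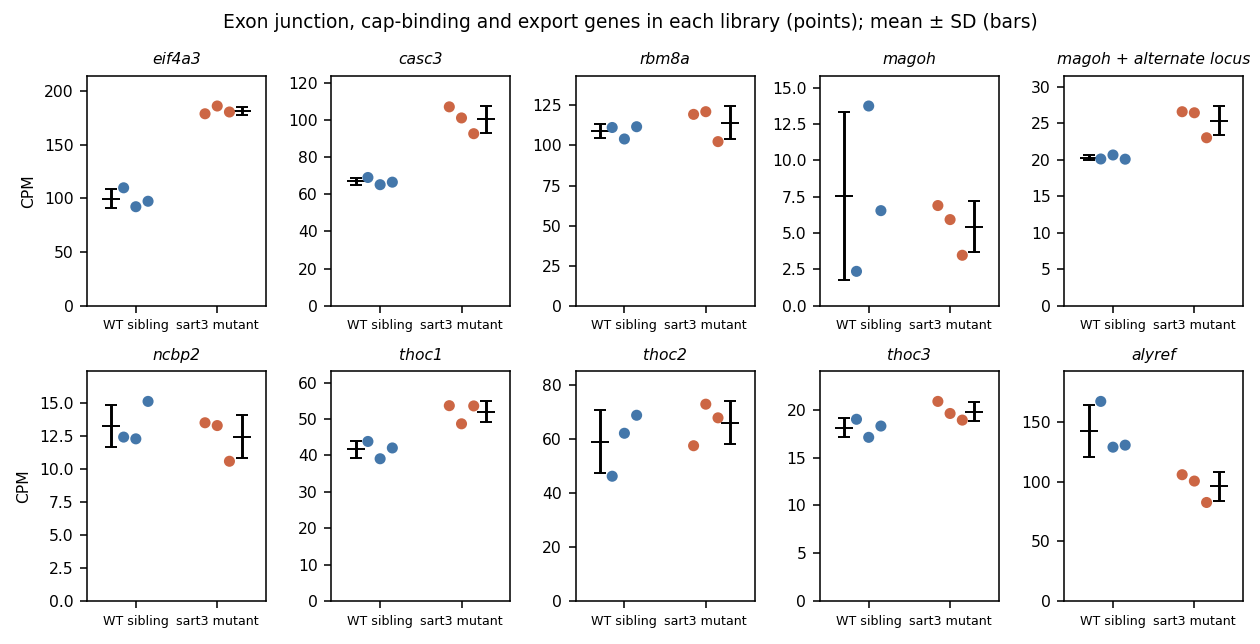
CPM of each gene (y axis, from 0, a scale of its own in each panel) in WT siblings and *sart3* mutants (x axis), with 1 point per library and the mean ± SD (n = 3) beside the points. All 3 mutants lie above all 3 siblings for *eif4a3*, *casc3*, *thoc1* and for *magoh* summed with its alternate-contig locus, and below them for *alyref*, while *magoh* alone spreads from 2.36 to 13.7 CPM in siblings.

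Among exon junction complex subunits, *eif4a3* (ENSDARG00000102978, chromosome 11, 44878571 to 44898129 in GRCz11, minus strand) had the largest difference of the 9 genes. It measured 109.9, 92.2 and 97.3 CPM in siblings 1, 2 and 3 and 179, 186 and 181 CPM in mutants 1, 2 and 3. The mutant libraries lay close together and far above the highest sibling. The group means were 99.8 ± 9.08 CPM in siblings and 182 ± 3.796 CPM in mutants (SD, n = 3), a 1.82-fold difference (log2 fold change 0.87, 95% interval 0.69 to 1.04, adjusted p = 9.0e-05 by edgeR). The call held in all 14 other fits tried, with a log2 fold change of 0.79 to 0.94.

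*casc3* (ENSDARG00000029911, chromosome 3, 23428953 to 23461954, minus strand) moved the same way. It had 69.1, 65.2 and 66.6 CPM in siblings and 107, 101 and 92.7 CPM in mutants, so the lowest mutant was above the highest sibling. The means were 67.0 ± 1.97 CPM and 100.4 ± 7.28 CPM (SD, n = 3), a 1.499-fold difference (log2 fold change 0.58, 95% interval 0.42 to 0.75, adjusted p = 0.00061 by edgeR). All 14 other fits called it, at 0.53 to 0.64.

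The heterodimer genes did not pass the test on their own rows. *rbm8a* (ENSDARG00000016516, chromosome 16, 45922175 to 45930077, plus strand) measured 111, 104 and 112 CPM in siblings and 119, 121 and 102 CPM in mutants. The mutant libraries spanned the sibling range on both sides, and the lowest value of all was a mutant. The means were 109 ± 4.29 CPM and 114 ± 10.3 CPM (SD, n = 3), with a log2 fold change of 0.07 whose 95% interval of -0.11 to 0.25 leaves out a change of the size seen for *eif4a3* or *casc3* (adjusted p = 0.56 by edgeR).

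*magoh* (ENSDARG00000038635, chromosome 8, 21133307 to 21135732, plus strand) was the most variable of the 9 genes. Its row held 42, 243 and 116 reads in siblings, or 2.36, 13.7 and 6.54 CPM, and 119, 95 and 58 reads in mutants, or 6.89, 5.92 and 3.46 CPM. Sibling 1 was the lowest and sibling 2 the highest of all 6 libraries, so all mutants lay within the sibling range. The means were 7.54 ± 5.76 CPM in siblings and 5.42 ± 1.76 CPM in mutants (SD, n = 3). The log2 fold change was -0.47 with a 95% interval of -1.70 to 0.75 (adjusted p = 0.55 by edgeR), and it turned to 0.27 (adjusted p = 0.69) without sibling 2. The row gives no usable direction for this gene.

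Another row of the table carried reads of a Mago nashi gene. It is an unnamed locus on alternate contig 8_1_5 of the assembly, from 21117677 to 21121056 on the plus strand, and the table annotates it with the Mago nashi protein domain. An alternate contig is a further version of a stretch of a chromosome, so reads from 1 gene can be placed on either version. This locus had 316, 122 and 240 reads in siblings and 340, 329 and 327 in mutants. It was lowest in sibling 2, where the chromosome 8 row was highest, and high in sibling 1, where that row was lowest.

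Added together, the 2 rows held 358, 365 and 356 reads in siblings, a coefficient of variation of 1.31% where the chromosome 8 row alone had 76.1%. In mutants the sums were 459, 424 and 385 reads. The chromosome 8 row took 11.7%, 66.6% and 32.6% of the summed reads in siblings 1, 2 and 3, and 25.9%, 22.4% and 15.1% in mutants 1, 2 and 3. The share thus varied among siblings far more than the sum did.

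**Figure D2:**
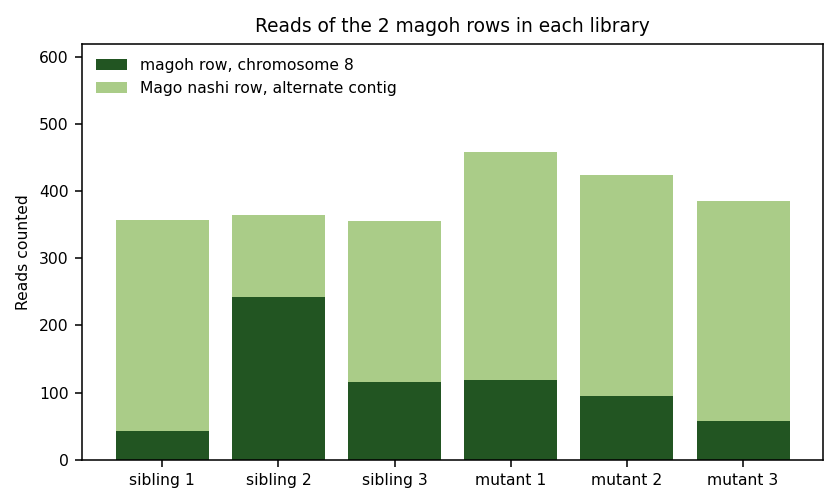
Reads counted (y axis, from 0) on the *magoh* row of chromosome 8 and on the Mago nashi row of the alternate contig, stacked for each of the 6 libraries (x axis). The stacks of the 3 siblings reach 358, 365 and 356 reads although the chromosome 8 row holds 42, 243 and 116 of them, and the mutant stacks reach 459, 424 and 385.

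The same split appeared in the neighbours of *magoh*. Its row and 6 others nearby, *tmco1*, *uck2a*, *cpt2*, *porcn*, *spryd4* and *gls2a*, were each set beside the alternate-contig locus that carries the gene's protein domain and lies in the same order and on the same strand. The highest chromosome 8 share was in sibling 2 for 7 of these 7 genes, and the lowest sibling share was in sibling 1 for 6 of the 7, all but *spryd4*. For *cpt2*, just downstream, the share was 21.9%, 60.2% and 39.7% in siblings and 38.7%, 28.8% and 31.6% in mutants. For *tmco1*, upstream, it was 40.8%, 94.6% and 52.1% in siblings and 55.2%, 52.5% and 53.6% in mutants, so that sibling 2 stood above the 5 other libraries. The summed reads of the neighbours varied more among siblings than those of *magoh*, at coefficients of variation of 5.93% (*uck2a*) to 25.2% (*porcn*). For *porcn* the sum varied more than the chromosome 8 row alone (15.3%), and for the other neighbours it varied less. The value of 1.31% for *magoh* is of sibling reads not scaled by library size, and its mutant sums varied by 8.76%. No steadiness of this gene is read from it. What sets the split was not tested. Alternate contigs held 3904 of the table's rows, with 5.95% to 6.39% of each library's counts.

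**Figure D3:**
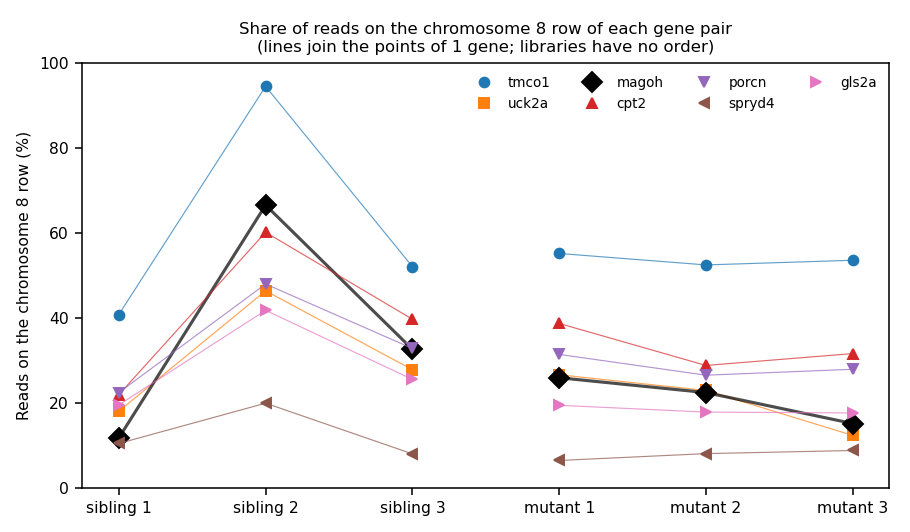
Share of summed reads on the chromosome 8 row (y axis, percent) for *magoh* and 6 neighbouring genes in each library (x axis), with 1 marker shape per gene and lines joining the libraries of a group only to guide the eye. Every gene peaks in sibling 2, where *magoh* reaches 66.6%, and the mutant shares of *magoh* stay between 15.1% and 25.9%.

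Counted as a single gene, a choice made after seeing these values, *magoh* measured 20.1, 20.6 and 20.1 CPM in siblings and 26.6, 26.4 and 23.0 CPM in mutants. All mutants were above all siblings, at means of 25.3 ± 2.02 CPM and 20.3 ± 0.32 CPM (SD, n = 3). The log2 fold change of the sum was 0.32 (95% interval 0.10 to 0.54, adjusted p = 0.038 by edgeR). That call was weak, because 6 of 14 other fits and 1 of 6 fits without a library kept it, and the adjusted p ran from 0.031 to 0.13. The direction held in all of these fits, at 0.29 to 0.39. The alternate locus alone differed by 0.65 on the log2 scale, with a standard error of 0.28 (adjusted p = 0.12 by edgeR). On the alternate contig it overlaps the locus set beside *cpt2* (21119933 to 21126934, minus strand), while the chromosome 8 rows of these genes do not overlap. A strand setting and the treatment of shared reads are not given in the sources used here. The summed level of *magoh* is therefore less certain than its spread among siblings would imply. No other of the 9 genes had an alternate-contig locus annotated with its own domain within 150 kb of its position. For *thoc2*, 3 alternate-contig loci lay in that window without its domain, and the search was by domain annotation alone.

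At the cap, *ncbp2* (ENSDARG00000014898, chromosome 22, 38930725 to 38934989, minus strand) measured 12.4, 12.3 and 15.1 CPM in siblings and 13.5, 13.3 and 10.6 CPM in mutants. The groups overlapped, and 2 of 3 mutants lay between the siblings. The means were 13.3 ± 1.599 CPM and 12.4 ± 1.62 CPM (SD, n = 3), with a log2 fold change of -0.09 (95% interval -0.43 to 0.25, adjusted p = 0.69 by edgeR).

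*ncbp1*, the large subunit, had no row under that symbol. Of the unnamed loci, 2 on chromosome 14 were picked for their MIF4G-type domains, not as a full list of such loci. This fold is found in the large cap-binding subunit and in several other proteins. The first (52584800 to 52586849), annotated as MIF4G domain, had 92, 66 and 83 reads in siblings and 93, 58 and 70 in mutants. The other (52658531 to 52659586), annotated as MIF4G like, had 124, 122 and 93 reads in siblings and 117, 111 and 100 in mutants. Both overlapped between the groups, with log2 fold changes of -0.04 and 0.04, and nothing in the table pairs either locus with a gene name.

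Of the THO subunits, *thoc1* (ENSDARG00000088246, chromosome 2, 2772447 to 2790493, plus strand) passed the test. It measured 43.8, 39.1 and 42.0 CPM in siblings and 53.6, 48.7 and 53.6 CPM in mutants, so that every mutant was above every sibling. The means were 41.6 ± 2.40 CPM and 52.0 ± 2.86 CPM (SD, n = 3), a 1.25-fold difference (log2 fold change 0.32, 95% interval 0.14 to 0.50, adjusted p = 0.019 by edgeR). The call was lost in 4 of the 6 fits that left out a library, with an adjusted p of 0.084 without sibling 2, 0.054 without sibling 3, 0.073 without mutant 1 and 0.060 without mutant 3. The log2 fold change kept its sign throughout, at 0.26 to 0.36.

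The scaffold gene *thoc2* (ENSDARG00000037503, chromosome 14, 12391871 to 12486627, plus strand) measured 46.2, 62.1 and 68.7 CPM in siblings and 57.5, 72.8 and 67.8 CPM in mutants. Library 1 was the lowest in each group, and the groups overlapped. The means were 59.0 ± 11.6 CPM and 66.0 ± 7.84 CPM (SD, n = 3), with a log2 fold change of 0.16 (95% interval -0.18 to 0.50, adjusted p = 0.46 by edgeR). Without sibling 1 it was 0.02.

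*thoc3* (ENSDARG00000056517, chromosome 14, 25505468 to 25510955, plus strand) encodes a WD-repeat subunit of the complex. It measured 19.0, 17.1 and 18.3 CPM in siblings and 20.9, 19.6 and 18.9 CPM in mutants. Only the lowest mutant and the highest sibling overlapped, by less than 0.1 CPM. The log2 fold change was 0.13 (95% interval -0.10 to 0.35, adjusted p = 0.39 by edgeR), and its interval still holds the value of *thoc1*.

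The adaptor gene *alyref* (ENSDARG00000077732, chromosome 3, 59880317 to 59891841, plus strand) was the member of the set that fell. It measured 167, 129 and 131 CPM in siblings and 106, 101 and 82.6 CPM in mutants. Sibling 1 stood above the other siblings, and every mutant was below every sibling. The means were 142 ± 21.7 CPM and 96.4 ± 12.2 CPM (SD, n = 3), which puts mutants at 0.677 of the sibling level (log2 fold change -0.56, 95% interval -0.85 to -0.28, adjusted p = 0.011 by edgeR). The call held in all 14 other fits, and without sibling 1 the value was -0.43 (adjusted p = 0.017). In the table *alyref* overlaps *sec14l1* on the same strand, and how the counting treated reads shared by both is not given in the sources used here. Its level is therefore less certain than that of the other genes apart from *magoh*.

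Levels can be set side by side between genes only per length, so the authors' FPKM (fragments scaled by gene length and library size) was used. In siblings *rbm8a* had the highest FPKM, at 115 ± 5.26, followed by *alyref* at 48.1 ± 8.02 and *eif4a3* at 28.0 ± 2.92 (SD, n = 3). None of these ranges overlapped the next. *thoc1* (19.7 ± 1.34 FPKM) and *casc3* (17.6 ± 0.74 FPKM) overlapped each other, and *ncbp2* followed at 14.2 ± 1.61 FPKM. *thoc3* (12.2 ± 0.77 FPKM), the chromosome 8 row of *magoh* (10.1 ± 7.70 FPKM) and *thoc2* (7.40 ± 1.37 FPKM) closed the order, and the range of the *magoh* row overlapped both of its neighbours. That row holds only part of the *magoh* reads. With the alternate-contig row added, *magoh* had 14.3, 22.7 and 17.0 FPKM in siblings and 21.4, 20.6 and 16.7 FPKM in mutants. The chromosome 8 row is scaled by 734 bp and the alternate-contig row by 1605 bp. This sum therefore also moves with the split of reads between the rows, and the place of *magoh* in the order is not settled. By FPKM the subunits of a single complex thus spanned a wide range, with the Y14 gene *rbm8a* far above *eif4a3* and *casc3*. That order rests on the annotated lengths, 937 bp for *rbm8a*, 3534 bp for *eif4a3* and 3767 bp for *casc3*. The lengths of the transcripts in use were not measured. In CPM, which is not scaled by length, *rbm8a* and *eif4a3* had means of 109 and 99.8 in siblings and 114 and 182 in mutants.

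In mutants *eif4a3* and *alyref* changed places. *rbm8a* remained first at 120.4 ± 10.9 FPKM, *eif4a3* came next at 50.8 ± 1.06 FPKM and then *alyref* at 32.4 ± 4.09 FPKM (SD, n = 3). Between *eif4a3* and *alyref* the ranges did not overlap in either group, so the swap was larger than the spread between libraries. *alyref* overlapped *casc3* (26.3 ± 1.90 FPKM), which overlapped *thoc1* (24.5 ± 1.35 FPKM). *ncbp2* and *thoc3* overlapped at 13.3 ± 1.73 and 13.2 ± 0.66 FPKM, and so did *thoc2* (8.26 ± 0.98 FPKM) and the chromosome 8 row of *magoh* (7.29 ± 2.37 FPKM), which again holds only part of its reads.

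**Figure D4:**
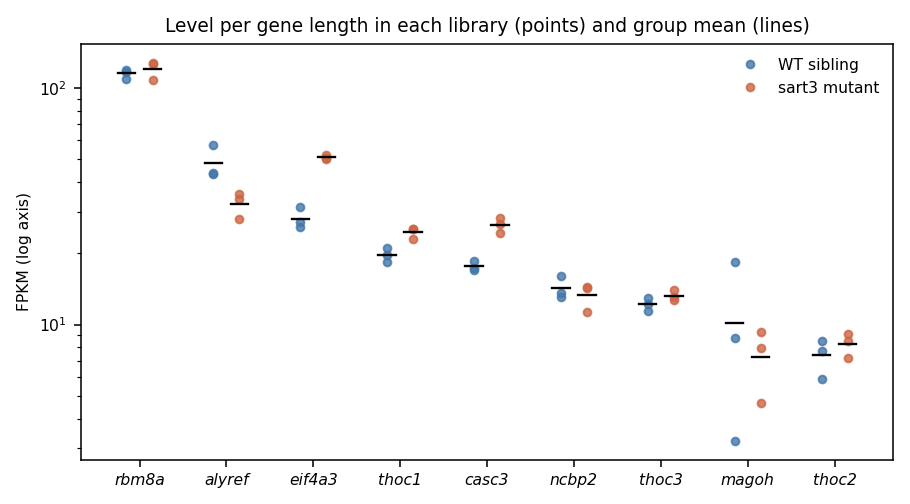
FPKM (y axis, log scale) of the 9 genes (x axis, in the order of sibling means), with 1 point per library and a line at each group mean, for WT siblings and *sart3* mutants, with *magoh* shown by its chromosome 8 row alone. *rbm8a* is highest in both groups, and the points of *eif4a3* and *alyref* change places, from 28.0 and 48.1 in siblings to 50.8 and 32.4 in mutants.

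Splicing was available as a list of 2075 events that the authors called, with reads on each form and inclusion levels for 3 mutants and 3 siblings. Group 1 of these tables was taken as the mutants from the order in the tables' names, the M and C sample descriptions and the study's account of *mdm4* exon 6, and the 3 values of a group are not tied to library numbers. Of the 9 genes 1 had a listed event, *thoc2*, where 6.22% of genes tested for expression had any. Because only called events are listed, no statement can be made on exons of the other 8.

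The *thoc2* event was a pair of mutually exclusive exons on chromosome 14, plus strand, in which an exon of 134 bp (12414605 to 12414738) or one of 161 bp (12419540 to 12419700) is used. The first exon was used in 0.492, 0.475 and 0.343 of transcripts in mutants and in 0.614, 0.523 and 0.464 in siblings, as inclusion levels from 81 to 166 reads a library on the exons and their junctions. The highest mutants lay above the lowest sibling. The means were 0.436 ± 0.082 in mutants and 0.534 ± 0.076 in siblings (SD, n = 3), a difference of -0.097 that did not exceed the spread (exact permutation test, two-sided, p = 0.30, where the smallest p that 3 against 3 allows is 0.1). With 3 against 3 this test cannot pass 0.05, and the event is listed because the authors' own test called it.

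The other genes of splicing-coupled export were taken from a list of 51 symbols, of which 43 were in the table and 40 were tested. Of these 40 genes, 10 were higher, 7 were lower and 23 were not called, so 42.5% were called beside 27.9% of all genes tested. Their median log2 fold change was 0.09. As with the 9 genes above, rises and falls stood side by side. These 40 genes were not searched as a set for alternate-contig loci, so a row may hold only part of a gene's reads. The list was chosen with earlier results of these data known. Its share, and those of its parts below, are therefore descriptions to be read beside the same 27.9%.

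**Figure D5:**
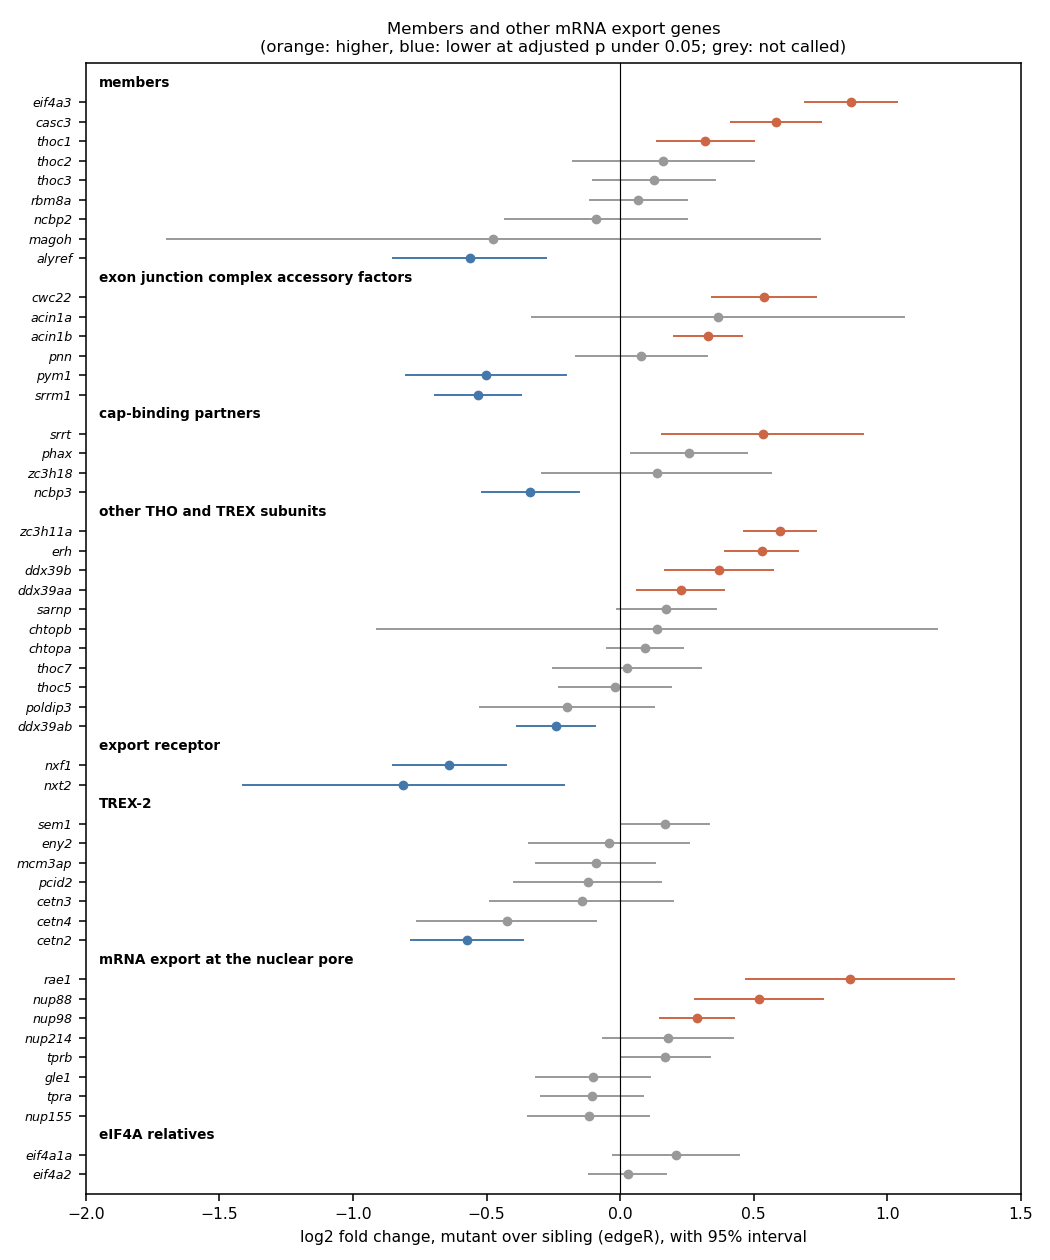
Log2 fold change of mutants over siblings (x axis, with 95% intervals from edgeR) for the 9 genes (top block) and 40 other mRNA export genes grouped by role (y axis). Orange marks genes higher and blue genes lower in mutants at an adjusted p under 0.05, and grey the rest. *eif4a3* (0.87) and *alyref* (-0.56) are the ends of the top block, and both tested export receptor genes lie below 0.

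Genes that work with the exon junction complex moved in both directions, with 2 of 6 higher and 2 lower (66.7% called, beside 27.9% of all genes tested). *cwc22*, which brings eIF4A3 to the spliceosome, rose from 43.3 ± 3.82 to 62.9 ± 2.79 CPM (SD, n = 3; log2 fold change 0.54, adjusted p = 0.0021 by edgeR), in the direction of *eif4a3*. *acin1b*, one of the *acin1* genes for the Acinus subunit of the ASAP complex, rose by 0.33 on the log2 scale (adjusted p = 0.0029). *srrm1*, a splicing coactivator found with the complex, fell from 190.0 ± 13.9 to 131 ± 3.48 CPM (log2 fold change -0.53, adjusted p = 0.00078). *pym1*, whose protein takes the complex off the mRNA by binding the MAGOH-Y14 dimer, fell by 0.50 on the log2 scale (adjusted p = 0.022), and its call was lost in 3 of 6 fits without a library. *sap18* was listed at 0 in every library. An unnamed locus on alternate contig 9_1_7, annotated with a SAP18 domain and a THAP domain, had 319, 219 and 268 reads in siblings and 413, 412 and 426 in mutants. It was called higher (log2 fold change 0.72, adjusted p = 0.0054). With both domains on this row, its reads are not shown to be of *sap18* alone. *acin1a* was not called (0.37, adjusted p = 0.41). An unnamed locus with an RNSP1-SAP18 binding motif, at overlapping positions on alternate contig 2_1_3, was called higher (0.33, adjusted p = 0.032). Neither unnamed locus is in the tally of 6 genes.

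Of the partners of the cap-binding complex, 1 of 4 was higher and 1 lower (50% called, beside 27.9% of all genes tested). *srrt*, which encodes ARS2, rose by 0.53 on the log2 scale (adjusted p = 0.043 by edgeR), but 1 of 6 fits without a library kept the call, and the fit with a replicate block lost it (adjusted p = 0.086). *ncbp3*, which encodes an alternative partner of the cap-binding subunits, fell by 0.34 (adjusted p = 0.014), with the call kept in 4 of 6 such fits. *srrt* lies on chromosome 5, as *sart3* does, and none of the 9 genes lies there.

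Among the other THO and TREX genes 4 of 11 were higher and 1 was lower (45.5% called, beside 27.9% of all genes tested). *zc3h11a*, whose product travels with TREX, rose from 142 ± 4.19 to 216 ± 7.71 CPM (SD, n = 3; log2 fold change 0.60, adjusted p = 0.00017 by edgeR). *erh*, which encodes a small conserved nuclear protein, rose from 75.0 ± 2.32 to 108 ± 0.82 CPM (log2 fold change 0.53, adjusted p = 0.00033). For the helicase that THO loads, *ddx39b* rose by 0.37 on the log2 scale (adjusted p = 0.015). Its relative *ddx39ab* fell by 0.24 (adjusted p = 0.023), whereas another relative, *ddx39aa*, rose by 0.23 (adjusted p = 0.045). The calls of *ddx39b* and *ddx39ab* were kept in 4 and 2 of 6 fits without a library, and that of *ddx39aa* was not followed in the other fits. The remaining THO genes tested did not pass, at -0.02 for *thoc5* and 0.02 for *thoc7* on the log2 scale, and *thoc6* had too few counts for a test.

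Both genes of the export receptor list that could be tested had lower counts in mutants. *nxf1* measured 107, 129 and 135 CPM in siblings and 76.4, 81.4 and 80.5 CPM in mutants, so that the groups stood apart. The means were 124 ± 15.02 and 79.4 ± 2.69 CPM (SD, n = 3; log2 fold change -0.64, standard error 0.09, adjusted p = 0.0013 by edgeR), and all 14 other fits called it. Many reads of this row lay on a retained intron. The form that keeps it had 1494 to 1934 reads in siblings (mean 1774) and 739 to 885 in mutants (mean 824), beside counts on the whole gene of 1903 to 2402 (mean 2196) and 1307 to 1348 (mean 1325). The groups differed by 950 reads on the intron form and by 871 on the gene, counted separately and without scaling, so a lower level of the spliced *nxf1* transcript is not shown. *nxt2*, for a partner of the receptor, fell from 4.34 ± 0.73 to 2.46 ± 0.68 CPM (log2 fold change -0.81, adjusted p = 0.0498), a call lost in 8 of 14 other fits. Among these were DESeq2 (adjusted p = 0.063), RLE factors (0.0504), the filter that kept any gene with a read (0.051) and 5 of 6 fits without a library.

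Events in other export genes were listed for *nxf1*, *srrm1* and *eif4a2*. In *nxf1* an intron of 3995 bp (chromosome 21, 26668599 to 26672593, minus strand) was retained in 0.400 ± 0.085 of transcripts in mutants and 0.645 ± 0.068 in siblings (SD, n = 3). The groups did not overlap (difference -0.245, exact permutation p = 0.1, the smallest that 3 against 3 allows). Most reads behind these levels lay within the intron or at its edges, and 26 to 56 reads a library joined the flanking exons. In mammals a transcript of this gene that keeps an intron is itself exported. In *srrm1* a 126 bp exon (chromosome 17, 25428582 to 25428707) was included at 0.051 ± 0.011 in mutants and 0.185 ± 0.080 in siblings, and in *eif4a2*, a relative of *eif4a3* that acts in translation, a form longer by 85 bp at an alternative 5′ splice site was used at 0.481 ± 0.047 in mutants and 0.204 ± 0.045 in siblings. Neither pair of groups overlapped (exact permutation p = 0.1 for each), and since the list holds only events the authors called, these differences are a description.

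At the nuclear pore 3 of 8 genes were higher and none lower (37.5% called, beside 27.9% of all genes tested). *rae1*, which tethers mRNA to the pore with Nup98, rose from 13.4 ± 0.49 to 24.3 ± 5.76 CPM (SD, n = 3; log2 fold change 0.86, adjusted p = 0.0064 by edgeR), and *nup98* rose by 0.29 (adjusted p = 0.0087). *nup88* rose by 0.52 (adjusted p = 0.0068) and lies on chromosome 5. Of 7 tested TREX-2 genes only *cetn2*, a centrin that also serves centrioles and DNA repair, was called (14.3%, beside the same 27.9%). It fell by 0.57 on the log2 scale (adjusted p = 0.0022 by edgeR). The eIF4A relatives *eif4a1a* and *eif4a2*, which are translation initiation helicases, were not called, at log2 fold changes of 0.21 (95% interval -0.03 to 0.44) and 0.03 (95% interval -0.12 to 0.17). The interval of *eif4a3*, 0.69 to 1.04, lay above both.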

How the data were processed

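Total RNA of whole embryos was extracted with TRIzol and prepared with a NEBNext Ultra RNA kit. For each library the authors deposited raw counts of reads per gene, together with FPKM. The deposited FPKM equal the counts divided by gene length and by a factor that is the same for all genes of a library. The submitters' processing notes name HISAT2 2.0.5, featureCounts 1.5.0-p3 and GRCz11, with no role or order, and a strand setting is not given in the sources used here. For events they called significant, the authors also deposited rMATS inclusion levels and the reads on each form, which include reads inside the exon or intron as well as on its junctions, with p-values and differences of their own that were not used here.

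Counts were tested with edgeR 4.0.16 in R 4.3.3 (filterByExpr, TMM factors of 0.975 to 1.015, quasi-likelihood test, mutants against siblings, all 6 libraries, no covariate). The common dispersion was 0.0274. Standard errors are the absolute log2 fold change divided by the square root of F, and 95% intervals use the t distribution with the test's degrees of freedom. Libraries of a group differed by more than sampling noise, at a chi-square per degree of freedom of 4.30 to 12.9, and each was kept as 1 replicate. Alternatives were DESeq2 1.42.0, limma-voom (limma 3.58.1), upper-quartile factors, RLE factors, library sizes alone, a filter that kept any gene with a read, a filter of 10 counts or more in each of the libraries, a replicate block and each library left out in turn, 14 fits in all, and, for numbers of genes, a log2 fold change of 1 or more in either direction. Inclusion levels were compared with exact permutation tests. The sibling reads of the *nxf1* event ran together in the table and were split so as to match the deposited inclusion levels. On simulated data for this comparison, with 200 of the genes changed by 1 on the log2 scale, edgeR recovered 166 and made 3 false calls among 24559 genes run. All genes had a dispersion of 0.03 there, and the changed genes were drawn from those above a low level. Smaller changes, such as those of the called genes here, were not simulated, so their recovery is not measured.

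The genes and lists were chosen with earlier results of these data known. Named genes are every chosen gene, *sart3*, and for each list of other export genes the 3 higher and 3 lower with the smallest adjusted p among those called. *thoc5*, *thoc7*, *ddx39aa*, *acin1a*, *sap18*, the eIF4A relatives, the neighbours of *magoh* and the unnamed loci fall outside that rule and were chosen after their values were seen. Of the 10 lists of cell type markers, the 5 not described in the report gave 0 higher and 3 lower of 5 neuron genes, 0 and 3 of 4 lens genes, 0 and 2 of 5 liver genes, 0 and 0 of 3 erythroid genes, and 2 and 0 of 4 epidermis genes.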

Additional observations from a re-analysis of the deposited data

How the results depend on the processing

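The 4 calls, 3 of them higher, held under all 7 other choices of tool, scaling and low-count filter, and 3 to 4 calls (2 to 3 higher, 1 lower) held with each library left out in turn, where the gene lost was *thoc1* each time. With a log2 fold change of 1 or more in either direction required, 0 of the 9 genes and 0 of the 40 other export genes were called, and 2063 of all genes. The sign turned in a pair of genes that were not called. With each library left out, *magoh* ran from -0.90 to 0.27, the latter without sibling 2, and *ncbp2* from -0.16 to 0.013, with 0.010 without sibling 3 and 0.013 without mutant 3. Calls among the other export genes ran from 12 to 17 and among all genes from 4706 to 7085 over these fits. Counting *magoh* as a sum, a choice made after seeing the data, gave 5 calls. Replicate numbers are shared by the groups. Deviations of same-numbered libraries correlated at 0.05, 0.02 and -0.10, which shows no pairing, but 3 libraries a group cannot exclude one. A fit with the replicate number as a block called 4 of the 9 genes, 15 other export genes and 5941 genes in all, and among the calls it lost were *srrt* (adjusted p = 0.086) and summed *magoh* (0.069). The *thoc2* difference in inclusion ran from -0.132 to -0.051 with each value left out and was -0.097 without effective lengths. Low reads limit *magoh* (42 to 243 on its own row) and *ncbp2* (177 to 268).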
